A study of Mus musculus with 4 samples.

Results

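The interferon-induced GTPases described here are 9 genes chosen by symbol: the immunity-related GTPases (IRG) Igtp, Irgm1, Irgm2, Iigp1, Tgtp1 and Tgtp2, and the guanylate-binding proteins (GBP) Gbp2, Gbp3 and Gbp7. All 9 were found by symbol among the 55536 annotated genes of the tables, and all 9 passed the minimum mean count of 10, as 13045 genes did. They were measured in polyA-selected RNA of inflammation-experienced regulatory T cells (Treg), CD4 T cells that restrain immune responses. The labels give 1 group: cells of the strain Foxp3CreERT2 x Rosa26YFP from an adult male, 6 months old, sequenced as 4 technical replicates of biological replicate 1 and called libraries 1 to 4 here. In such strains an inducible Cre is expressed from Foxp3, so that its reporter marks cells that expressed Foxp3 when the inducer was given. The labels also trace the cells to a hematopoietic cell of the bone marrow and do not say how inflammation was induced. No condition was compared. The spread between libraries may be technical, but the libraries differed in transcripts of other cells, with erythroid markers summing to 1065 TPM in library 1 and to at most 38.6 TPM in the rest, and Foxp3 ranged from 20.3 to 36.4 TPM. Whether they hold the same cells was not tested, and an SD with n = 4 is the spread over these libraries only.

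IRG and GBP proteins belong to the cell-autonomous defence that interferon switches on. Interferon gamma acts through its receptor and the kinases JAK1 and JAK2 on genes with GAS elements, while type I interferon acts through a complex with IRF9 on the interferon-stimulated response element (ISRE). The effector IRG proteins and the GBP proteins then assemble on vacuoles that hold intracellular microbes and help to break them. The regulatory IRG proteins sit on the cell's own membranes and keep the effectors inactive there, and mice that lack Irgm1 lose lymphocytes during infection.

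On mouse chromosome 11 (mm10) lie 5 of the members, in separate groups. Irgm1, Tgtp1 and Tgtp2 lie within 202 kb, on the minus strand, from position 48861968 to 49064206. Igtp (58199556 to 58207591) and Irgm2 (58199618 to 58222782) lie on the plus strand and overlap, since an annotated Irgm2 transcript, Irgm2-201, begins inside the first exon of Igtp. The GBP members lie within 108 kb of chromosome 3 on the plus strand, in the order Gbp7 (142530342 to 142550149), Gbp3 (142560026 to 142573209) and Gbp2 (142620602 to 142638008).

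The regulatory and effector IRG genes differ in the first nucleotide-binding motif (G1) of the GTPase domain, which usually ends in lysine and serine. The coding sequence is shown there because it is what separates the groups by which the levels are given below. Capitals mark the codon of the residue before the serine, which is methionine in the regulatory members and lysine in the others, and all lines are read from the leading transcripts of GENCODE M21.
Igtp, Irgm1 and Irgm2: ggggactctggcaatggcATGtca
Tgtp1 and Tgtp2: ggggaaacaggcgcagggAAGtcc
Gbp2: ggcctctaccgcacaggcAAAtcc
Gbp3: ggtttatatcgtacagggAAGtcc
Gbp7: ggactataccgtacgggaAAAtcc
The 3 regulatory genes carry the same 24 bases, at chr11:58206275-58206298 (plus strand) in Igtp, chr11:48866761-48866784 (minus strand) in Irgm1 and chr11:58219695-58219718 (plus strand) in Irgm2. Those of Tgtp1 and Tgtp2 lie at chr11:48987667-48987690 and chr11:49059534-49059557 (minus strand), and those of Gbp2, Gbp3 and Gbp7 at chr3:142623826-142623849, chr3:142561878-142561901 and chr3:142534655-142534678 (plus strand). Over the whole coding sequence Igtp-201 and Irgm2-202 were 69.5% identical, and Gbp3-202 and Gbp7-201 were 77.4% identical.

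The sequence just before the transcript start is shown because interferon acts on these genes through it. RefSeq windows (GRCm38.p6) from 250 bases before to 50 bases after the start were matched for 8 of the 9 members. Capitals mark the letters GAAANNGAAA on either strand, the core of an ISRE, and TTCNNNGAA, the core of a GAS element. Each stretch of 50 bases runs along the strand of the gene and begins 25 bases before the first ISRE letters.
Igtp: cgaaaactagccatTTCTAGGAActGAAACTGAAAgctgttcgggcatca
Irgm2: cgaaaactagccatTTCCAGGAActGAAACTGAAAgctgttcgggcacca
Tgtp1: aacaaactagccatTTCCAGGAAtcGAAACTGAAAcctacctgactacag
Tgtp2: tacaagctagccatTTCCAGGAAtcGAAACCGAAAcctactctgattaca
Irgm1: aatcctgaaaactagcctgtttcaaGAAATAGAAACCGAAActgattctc
Gbp2: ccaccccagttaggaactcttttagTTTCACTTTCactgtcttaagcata
Gbp3: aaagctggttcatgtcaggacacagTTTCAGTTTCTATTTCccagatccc
Gbp7: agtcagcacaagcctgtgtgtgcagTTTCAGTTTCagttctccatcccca
They lie at chr11:58199497-58199546, chr11:58214888-58214937, chr11:48992299-48992348 (minus strand), chr11:49064258-49064307 (minus strand), chr11:48871426-48871475 (minus strand), chr3:142620579-142620628, chr3:142559974-142560023 and chr3:142530258-142530307, in the order of the lines. In the GENCODE annotation the Irgm1 stretch lies in the first exon of a noncoding transcript, Irgm1-203, and 27 bases of the Gbp2 stretch lie in the first exon of Gbp2-201.

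ISRE letters were present in a window of each of the 8 matched members, and in 8 of their 9 windows, against 3.44% of 32851 windows of the same length over all genes. Their first base lay between 77 bases (Tgtp1, at -77) and 30 bases (Irgm1, at -30) before the start. Irgm1 and Gbp3 each held a second, overlapping match. Gbp3 had a further window (chr3:142560106-142560405), at another start, with no match. That window ends just before the annotated start of Gbp3-202 (142560411), which took 82.7% to 100.0% of the TPM of Gbp3. No window covers the start of Gbp3-202. The same holds for Tgtp1-203 (start at 48994172), which was assigned 51.9% of the TPM and 19.4% of the counts of Tgtp1. It also holds for Irgm2-201 (start at 58199618), which took 0 to 43.7% of the TPM of Irgm2. The Irgm2 window (58214727 to 58215026) holds bases upstream of Irgm2-202 but ends just before its start (58215028). Windows set at those starts were not searched. GAS letters were present in 5 members, Igtp, Irgm2, Tgtp1, Tgtp2 and Gbp7, against 8.30% of windows. In Igtp, Irgm2, Tgtp1 and Tgtp2 the GAS letters stood 2 bases before the ISRE letters, an arrangement searched for after these sequences had been seen. It occurred in 5 of the 32851 windows, which were those 4 and that of Gm12185, a gene whose GENCODE annotation overlaps Tgtp1 and whose RefSeq window (chr11:48927133-48927432) does not overlap that of Tgtp1. A match of letters describes the window and does not show binding.

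**Figure D1:**
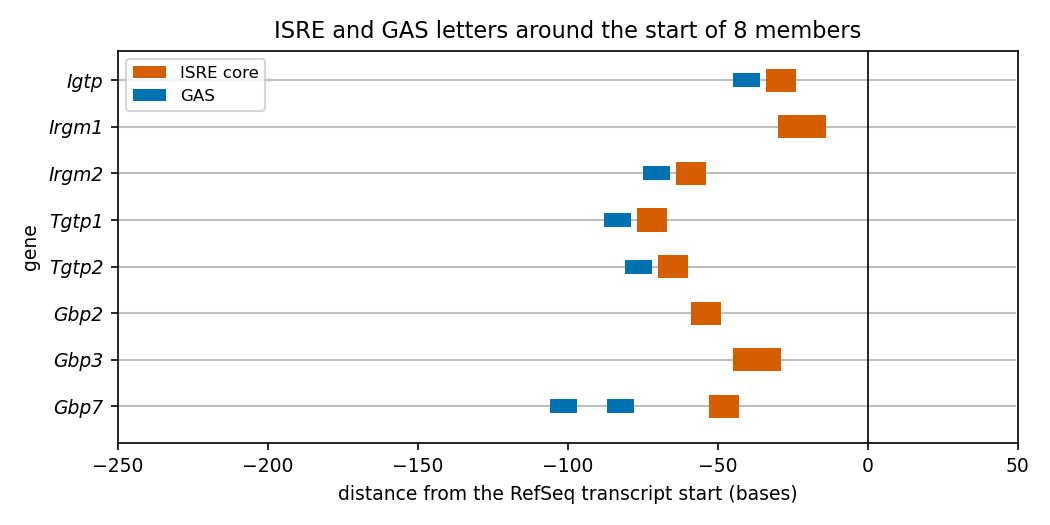
Position of ISRE core letters (orange) and GAS letters (blue) relative to the RefSeq transcript start (x axis, in bases, start at 0) in the 8 matched members (rows). The ISRE letters of all 8 begin between -77 and -30, and GAS letters lie just before them in Igtp, Irgm2, Tgtp1 and Tgtp2.

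The GTPase genes were expressed at 43.6 to 346 TPM (a level scaled for transcript length and library total, which can be compared between genes). Igtp and Tgtp2 were the most abundant and Irgm2 the least. These levels are from the gene tables on the annotation GENCODE M21, and the other quantifications of the same libraries follow further on. The 6 IRG genes together summed to 1371 ± 175 TPM and the 3 GBP genes to 339 ± 41.9 TPM (SD, n = 4 libraries). In 4 of 4 libraries the IRG sum was higher, by 2.02 ± 0.07 on the log2 scale. The IRG genes thus held 80.2 ± 0.806% of the summed level of the 9 members.

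Among the regulatory IRG genes, Igtp, which encodes Irgm3, stood at 427, 388, 290.5 and 280.1 TPM in libraries 1 to 4. Its mean of 346 ± 72.4 TPM ranked 324 among 22028 protein-coding genes, and libraries 1 and 2 lay above libraries 3 and 4. Irgm1, the regulator on Golgi and lysosomal membranes, had 172, 170.2, 159 and 179.8 TPM, or 170.2 ± 8.41 TPM, the narrowest relative spread in TPM among the 9 members. Irgm2 had 56.8, 41.2, 36.0 and 40.4 TPM, with library 1 apart from the rest. Igtp exceeded its overlapping neighbour Irgm2 by 2.99 ± 0.19 on the log2 scale, in 4 of 4 libraries. The regulatory genes summed to 656, 599, 486 and 500.3 TPM.

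Among the effector IRG genes, Tgtp2 had 393, 326, 261 and 362 TPM in libraries 1 to 4. Its near-identical copy Tgtp1 had 296, 262, 194 and 264 TPM. Both genes encode the effector Irgb6, which loads onto vacuoles early, and both were lowest in library 3. Iigp1, which encodes the effector Irga6 and lies on chromosome 18, had 228, 197, 206 and 256 TPM, and was instead highest in library 4. Its product has lysine in the G1 motif, as the Tgtp products do. The effector sum of 918, 784, 661 and 882 TPM was above the regulatory sum in 4 of 4 libraries, by 0.53 ± 0.19 on the log2 scale. That order turned round in the gene counts on the older annotation GENCODE M4, which are described with the other quantifications.

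Among the GBP genes, Gbp7 had 179, 161, 136 and 149.9 TPM in libraries 1 to 4. Gbp2, whose product is anchored to membranes by a lipid, had 126, 116, 94.6 and 95.9 TPM. Gbp3 had 82.4, 80.1, 61.2 and 72.1 TPM. The order Gbp7, Gbp2, Gbp3 held in 4 of 4 libraries, with steps of 0.54 ± 0.07 and 0.54 ± 0.10 on the log2 scale. In TPM, all 3 GBP genes were highest in library 1 and lowest in library 3. By counts their highest library was another, as given further on.

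**Figure D2:**
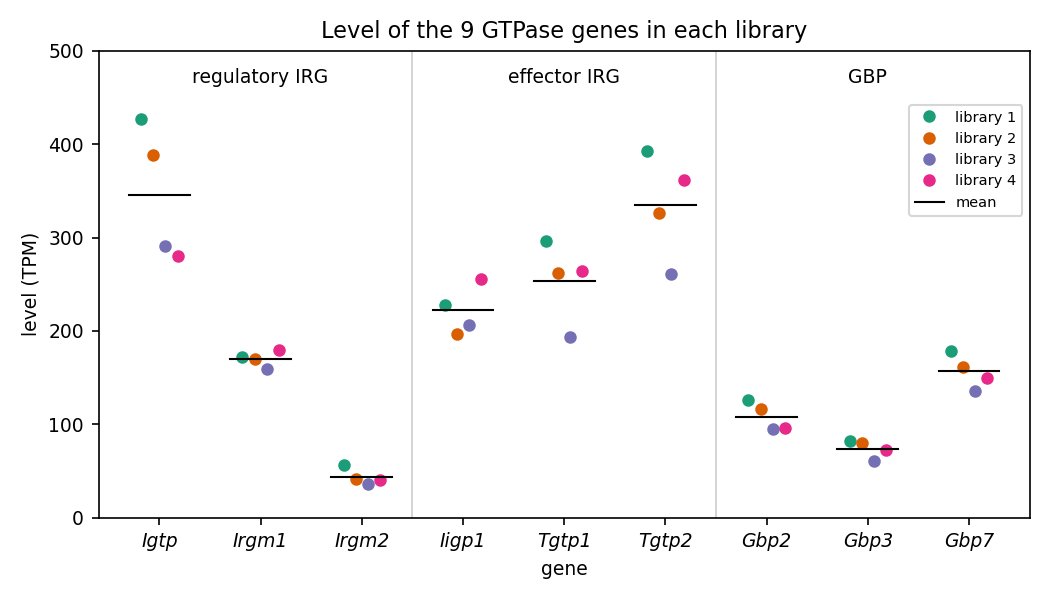
Level of each of the 9 genes (y axis, TPM, linear) in libraries 1 to 4 (coloured points), with the mean over libraries (black line), in groups of regulatory IRG, effector IRG and GBP genes. Igtp reaches 427 TPM and Irgm2 stays at or below 56.8 TPM, and the point of library 3 is the lowest in 7 of the 9 genes.

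In the order of mean levels, Igtp, Tgtp2, Tgtp1, Iigp1, Irgm1, Gbp7, Gbp2, Gbp3, Irgm2, 3 steps were smaller than their own spread. Igtp differed from Tgtp2 by 0.04 ± 0.28 (log2, SD over libraries) and was higher in 3 of 4 libraries. Tgtp1 differed from Iigp1 by 0.19 ± 0.25, and Irgm1 from Gbp7 by 0.13 ± 0.15, each higher in 3 of 4 libraries. The other 5 steps, of 0.37 to 0.77, had the same sign in every library and exceeded 2 SD. The exact two-sided sign-flip permutation test over 4 libraries cannot go below p = 0.125, the value reached by these 5 steps, so no step can be called. Over the 13 pairs compared the adjusted p-values were 0.162 or more.

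Each member's share of counts differed between the libraries by more than counting noise. This held for 9 of 9 members by edgeR's likelihood ratio test of a Poisson model with adjustment over all tested genes, but for 68.6% of all 13045 tested genes as well. The size of the differences was near that of other genes. From the lowest to the highest library, CPM (a library's counts scaled to the same total) spanned a median of 1.45-fold over the members and 1.49-fold over all tested genes. Only Irgm2, at 1.53-fold, was called with a CPM span of at least 1.5-fold, against 37.5% of all tested genes. With the span taken in TPM, a choice made after seeing the data, 4 of 9 members were, Igtp (1.52-fold), Irgm2 (1.58-fold), Tgtp1 (1.53-fold) and Tgtp2 (1.51-fold), against 39.9%. Igtp, at 596, 612, 419.5 and 410.4 CPM, had the smallest adjusted p, 5.2e-128. Gbp7, at 525, 522, 463 and 527 CPM, had an adjusted p of 8.2e-11, and without library 3 its adjusted p was 0.89.

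Library 3 was the low one for most members. Counts of 8 of the 9 members were higher in library 1 than in library 3 in the same test, against a background of 24.3% of tested genes. The remaining member, Irgm1, at 268 CPM in library 1 and 252 CPM in library 3, had an adjusted p of 0.054. Against library 2, whose counts were higher for 23.2% of tested genes, library 3 was lower for 9 of 9 members. Library 3 was also lower than library 4 for 7 of 9 members, with a background of 11.1%. Between libraries 1 and 4 the members split, with 6 higher in library 1 (background 23.0%) and 2 lower (background 19.4%), Irgm1 and Iigp1. Between libraries 1 and 2 there were 2 higher in library 1 (Irgm2 and Tgtp2, background 20.2%) and 2 lower (Irgm1 and Gbp3, background 19.5%). Between libraries 2 and 4 there were 4 higher in library 2 (Igtp, Tgtp1, Gbp2 and Gbp3, background 22.0%) and 1 lower (Iigp1, background 20.1%). By TPM, 7 of 9 members had their highest level in library 1 and 7 of 9 their lowest in library 3, as 33.0% and 17.2% of all tested genes did. By CPM only Irgm2, Tgtp1 and Tgtp2 were highest in library 1. Igtp, Irgm1, Gbp2 and Gbp3 were then highest in library 2, and Iigp1 and Gbp7 in library 4.

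Transcripts of other cells varied between the same libraries. The markers of Treg and T cells, led by Trac, summed to 5457, 5742, 6058 and 5463 TPM in libraries 1 to 4, with all 7 at 1 TPM or more in every library. That sum does not show opposite changes within the list. Foxp3 itself stood at 20.3, 21.7, 32.8 and 36.4 TPM. Ikzf2 was likewise higher in libraries 3 and 4, at 279, 349.9, 562 and 457 TPM, while Cd4 was lower there, at 516, 495, 309 and 318 TPM. The 5 B cell markers, led by Cd79b, summed to 177, 125, 79.0 and 149 TPM, so that their sum was highest in library 1 and lowest in library 3. Gene by gene, 4 of the 5 were highest in library 1 and 5 of 5 lowest in library 3, as 33.0% and 17.2% of all tested genes were. Cd79b was highest in library 4, at 89.3 TPM against 88.5 TPM in library 1. All 5 were called, as were 68.6% of all tested genes. The 6 myeloid markers, led by Lyz2, summed to 26.1, 7.41, 5.22 and 15.5 TPM, the 5 erythroid markers, led by Hba-a2, to 1065, 4.60, 38.6 and 17.2 TPM. Neutrophil, NK and CD8, and stromal markers summed to at most 8.91, 7.94 and 1.64 TPM in any library, led by S100a8, Cd8a and Epcam. B cells and myeloid cells can also express these GTPases, and the part of other cells in the members' levels was not tested. In bulk RNA, fewer cells of a type and less RNA per cell cannot be told apart. The libraries held 9284432, 9341328, 9325636 and 6648385 expected counts, so library 4 was the shallowest, yet no member had fewer than 727 expected counts in any library.

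The level of the Tgtp genes depended on how the reads were counted. Tgtp1-201 and Tgtp2-201, their leading transcripts by counts, have coding sequences of 1248 bases that are 99.7% identical. The 4 differences, counted from the first base of the start codon and written from Tgtp1 to Tgtp2, are G270C, C408T, C729T and C735A, and none changes the encoded amino acid. The stretch with the last of them is shown because a read must cover such a base to tell the copies apart, with the differing bases in capitals (coding bases 709 to 768, chr11:48987109-48987168 in Tgtp1 and chr11:49058976-49059035 in Tgtp2, both minus strand).
Tgtp1: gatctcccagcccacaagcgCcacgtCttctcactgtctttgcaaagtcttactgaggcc
Tgtp2: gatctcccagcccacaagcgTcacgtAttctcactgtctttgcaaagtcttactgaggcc
Of all words of 31 bases in Tgtp1-201, 94.2% also occur in a transcript of another gene, and 162 are its own. In Tgtp2-201 the share is 94.7%, with 147 words of its own. The other members shared far less, from 2.92% in Irgm1-201 to 16.4% in Igtp-201, whose shared words lie in Irgm2.

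**Figure D3:**
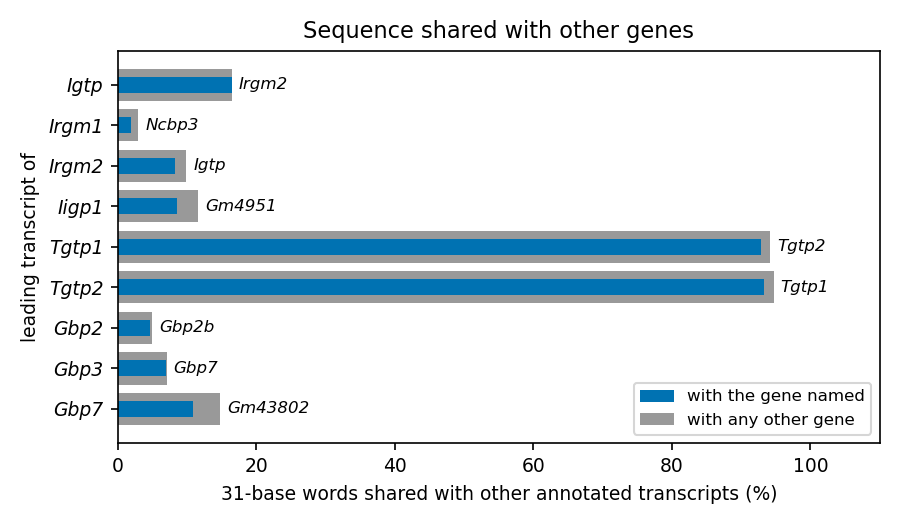
Percentage of 31-base words in each member's leading transcript (rows) that occur in annotated transcripts of any other gene (grey) and of the single gene sharing most (blue, named beside the bar). Tgtp1 and Tgtp2 share 94.2% and 94.7%, and every other member at most 16.4%.

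Each library was quantified in 3 ways, and the Tgtp genes were lower relative to the other members in M4 units. In the M21 gene table Tgtp1 and Tgtp2 together reached 689.6, 588, 454 and 626 TPM. In the table made from the reads, with TPM taken over coding genes, they reached 514, 429, 328 and 461 TPM. This is 0.735 of their M21 level, close to the 0.754 of all 9 members together, the pair included. Within the pair the ratio was 0.611 for Tgtp1 and 0.828 for Tgtp2. On the log2 scale that is -0.71 and -0.27, and the other members lay between -0.42 (Gbp2) and -0.27 (Gbp3). Over 10432 genes the median was -0.17 and the 5th percentile -0.42. In the M4 counts scaled by length Tgtp1 and Tgtp2 together reached 207, 184, 139.8 and 193 units, which is 0.307 of their M21 level in TPM. All 9 members together were at 0.778, a sum that includes the pair. Outside the pair, the regulatory sum was at 1.08, the GBP sum at 1.07 and Iigp1 at 0.813 of the M21 level. The M4 counts of the pair were 0.365 (Tgtp1) and 0.351 (Tgtp2) of the M21 expected counts. The log2 ratio of M4 units to M21 TPM was -1.67 for Tgtp1 and -1.73 for Tgtp2, while its 5th percentile over 9775 genes was -1.78 and its median 0.05. Outside the members, the IRG genes 9930111J21Rik1 and 9930111J21Rik2 lay lower still, at -2.17 and -2.42. Ifi47, Gm4951, F830016B08Rik and Gm4841 lay at 0.04 to 0.51. The part that shared sequence plays in this was not tested.

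With the Tgtp genes low, the groups changed places. In M4 units the effector sum of 395, 348, 307 and 395 lay below the regulatory sum of 700.3, 641, 536 and 553, in 4 of 4 libraries, by -0.75 ± 0.18 on the log2 scale. The IRG sum stayed above the GBP sum, by 1.42 ± 0.05. Igtp was first in M4 units at 394 ± 74.3 and second to Tgtp2 in the table made from the reads, at 263 ± 56.4 TPM against 278 ± 52.8 TPM. Irgm2 was the lowest member in all 3 quantifications, and in M4 units, at 21.4 ± 4.04, it had 0.491 of its M21 level. Gbp2 and Gbp3 were higher in M4 units than in M21 TPM, by 1.30-fold and 1.37-fold, and Gbp7 lower, at 0.766 of its M21 level, so that Gbp2 then stood above Gbp7. The drop of library 3 for Tgtp2 was present in each quantification, with 261 TPM, 207 TPM and 77.8 units as the lowest of its 4 values.

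**Figure D4:**
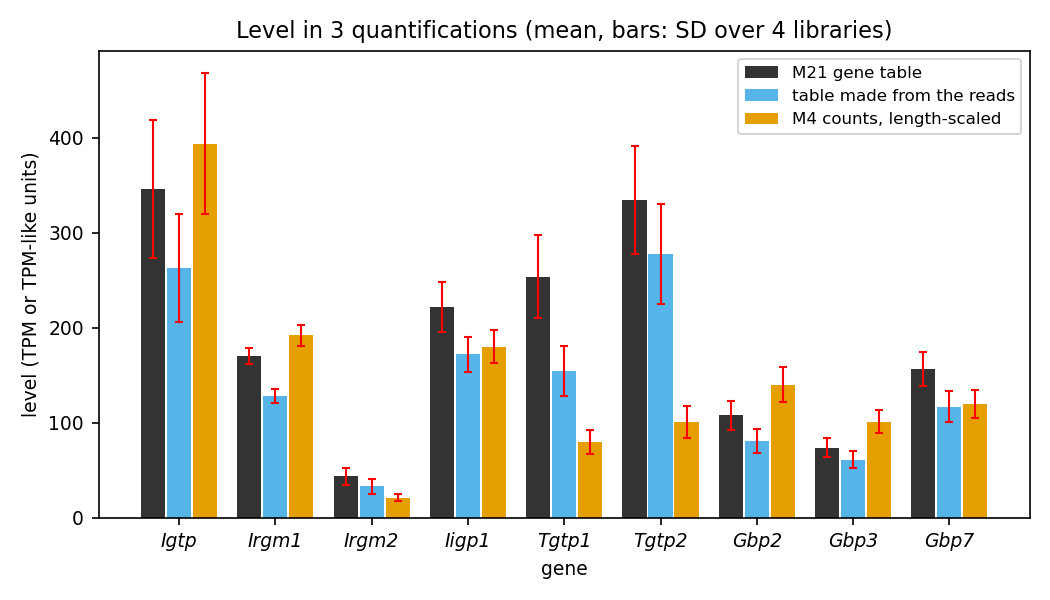
Mean level of each member (bars) with the SD over 4 libraries (red error bars) in the M21 gene table (black, TPM), the table made from the reads (blue, TPM over coding genes) and the M4 counts scaled by length (orange, TPM-like units). Tgtp2 stands at 335, 278 and 101, while Igtp stands at 346, 263 and 394.

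The balance between the Tgtp copies also depended on which transcripts were set against each other. Tgtp1 took 43.1 ± 1.03% of the pair's TPM in the M21 gene table, 35.9 ± 1.43% in the table made from the reads and 44.0 ± 1.32% in M4 units. The share in M4 units is not independent of the M21 table, since M4 units use the effective gene lengths given there. Before that scaling the M4 counts were 1184, 1205, 862 and 832 for Tgtp1 and 2434, 2374, 1763 and 1862 for Tgtp2. The short transcript Tgtp1-203, of 764 bases, was assigned 51.9 ± 0.886% of the TPM but 19.4 ± 0.573% of the counts of Tgtp1 in the M21 tables. Between the full-length transcripts alone, Tgtp1-201 took 27.1 ± 0.867% of the TPM in the M21 table and 28.5 ± 0.477% in the table made from the reads. Tgtp1 also overlaps Gm12185 on the same strand, at 5.67 ± 1.98 TPM, and both Tgtp genes overlap Olfr56 on the opposite strand. Strand handling is not given in the sources used here.

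Transcript use differed between the libraries in several members. The share of the leading transcript by TPM placed libraries 1 and 2 apart from libraries 3 and 4, with no overlap, in 4 of 9 members (Igtp, Irgm2, Tgtp2 and Gbp7) in the M21 table and in 4 of 9 (Igtp, Irgm2, Gbp3 and Gbp7) in the table made from the reads. The same held for 34.4% and 36.0% of 10491 genes with more than 1 transcript and a mean count of at least 10, so that the members' share was near that background. The division was looked for after it had been seen. Igtp-201, which holds the whole coding sequence of 1272 bases, took 79.1%, 77.6%, 88.3% and 87.8% of the TPM of Igtp in libraries 1 to 4. The remainder went to Igtp-202 and Igtp-203, which have 4 exons where Igtp-201 has 3, and annotated coding lengths of 162 and 219 bases. Together these took 20.9%, 22.4%, 11.7% and 12.2%, and 14.6%, 13.9%, 7.11% and 7.35% in the table made from the reads. Gbp7-202, which shares its start and its coding length of 1917 bases with Gbp7-201 but ends earlier, took 52.9%, 56.2%, 37.4% and 34.4% of the TPM of Gbp7. Its share in the table made from the reads was 49.8%, 53.9%, 35.8% and 30.0%.

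The transcripts of Irgm2 differ in where they start. Irgm2-201, whose first exon (58199618 to 58199779) lies in the first exon of Igtp and ends at the same base, had 0 and 0 expected counts in libraries 1 and 2 and 396 and 164 in libraries 3 and 4. In the table made from the reads it had 0, 0, 242 and 99 estimated counts. Irgm2-202 and Irgm2-203 start beyond the last Igtp base, at 58215028 and 58215008, and Irgm2-202 took 84.1%, 78.8%, 29.7% and 26.6% of the TPM of Irgm2. In the table made from the reads Irgm2-202 took 87.0%, 80.5%, 58.6% and 54.3%. An estimated count of 0 can be a choice of the program between transcripts that share most of their bases, and read-level evidence for the first exon was not analysed here.

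Irgm1-201 took 60.5%, 49.0%, 43.4% and 55.5% of the TPM of Irgm1 and the shorter Irgm1-202 nearly all of the remainder. Gbp2-201 took 100.0% of Gbp2 in every library, and Gbp3-202 took 82.7% to 100.0% of Gbp3, or 85.2%, 91.8%, 84.8% and 75.5% in the table made from the reads. For Iigp1, Iigp1-202 and Iigp1-204, which differ in their first exon and share a coding length of 1242 bases, took 38.9 ± 4.29% and 37.6 ± 4.64% in the M21 table. In the table made from the reads they took 54.1 ± 3.05% and 18.3 ± 3.49%.

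**Figure D5:**
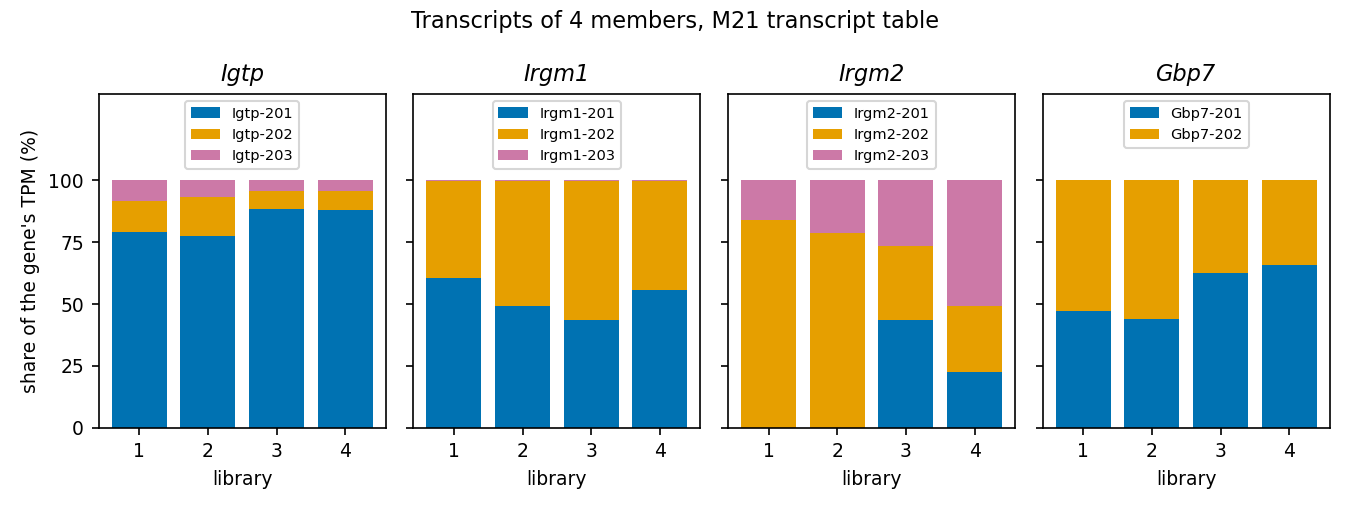
Share of each gene's TPM (y axis, %) by annotated transcript (colours) in libraries 1 to 4 (x axis) for Igtp, Irgm1, Irgm2 and Gbp7 in the M21 transcript table. Irgm2-201 is at 0 in libraries 1 and 2 and at 43.7% and 22.7% in libraries 3 and 4, and Gbp7-202 is at 52.9% and 56.2% in libraries 1 and 2 and at 37.4% and 34.4% in libraries 3 and 4.

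The other genes of the families were set beside the members. Of 10 further IRG genes, 7 reached a mean of 1 TPM, and the 8 further GBP genes all did. Ifi47, an effector-type IRG gene also called Irgd, had 412, 373, 361 and 447 TPM, so that its mean of 398 ± 38.9 TPM was above that of Igtp. The tandem IRG genes 9930111J21Rik1 and 9930111J21Rik2 stood at 159 ± 45.6 and 139 ± 32.4 TPM, both highest in library 1 and lowest in library 3. Gm12250, which encodes Irgb10 but is annotated as a processed pseudogene in M21, stood at 100.5 ± 11.1 TPM. Its level was not compared in the other quantifications. Gm4951, F830016B08Rik and Gm4841, IRG genes on the chromosome of Iigp1, stood at 33.4 ± 2.35, 33.3 ± 3.99 and 8.57 ± 1.30 TPM.

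Among the GBP genes outside the 9 members, Gbp4 was the highest at 251, 200.1, 203 and 205 TPM, above every GBP member in each library. Gbp6, Gbp9 and Gbp8 had means of 119 ± 9.67, 83.7 ± 9.90 and 82.7 ± 6.92 TPM. Gbp10 stood at 41.9 ± 8.05 TPM and Gbp2b, the gene formerly called Gbp1, at 24.8 ± 6.30 TPM. Gbp5, which acts with the inflammasome, and Gbp11 were low, at 12.2 ± 1.56 and 1.97 ± 0.567 TPM. In the test between libraries, 7 of 8 tested further IRG genes and 6 of 8 further GBP genes were called, against the same background of 68.6%. Their median spans of 1.34-fold and 1.25-fold in CPM stood beside 1.45-fold for the members.

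The interferon signalling list was chosen for the pathway upstream of these GTPases, and 19 of its 20 genes reached a mean of 1 TPM. Of the receptor chains of interferon gamma, Ifngr1 had 206 ± 48.9 TPM and Ifngr2, the chain that binds JAK2, 15.1 ± 6.52 TPM. Jak1 and Jak2 stood at 265 ± 51.0 and 14.2 ± 3.57 TPM. Ifng itself, the cytokine, averaged 9.40 ± 0.583 TPM over the libraries and was not called between libraries (adjusted p = 0.80). The type I receptor genes Ifnar1 and Ifnar2 stood at 67.2 ± 10.6 and 33.7 ± 6.17 TPM, and Tyk2, their kinase, at 46.6 ± 5.54 TPM.

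The transcription factors included Irf1, which activates GBP genes, at 282 ± 17.6 TPM, and Irf2 at 182 ± 11.6 TPM. Irf9 and Stat2, which act together at the ISRE, stood at 129.8 ± 8.75 and 50.7 ± 7.05 TPM, and Irf8 at 15.6 ± 3.47 TPM. Nlrc5, the activator of MHC class I genes, had 133 ± 28.9 TPM, and Ciita, that of class II genes, 3.60 ± 1.95 TPM with 0.99 TPM in library 3. Of the inhibitors, the phosphatase gene Ptpn2 stood at 103 ± 10.9 TPM, Socs3 at 24.1 ± 2.53 TPM and Socs1 at 2.22 ± 0.751 TPM. In all, 18 of 19 tested genes of the list were called between libraries, against the background of 68.6%. Of the 19, 8 were called with a CPM span of at least 1.5-fold, against the background of 37.5%. By TPM, Jak1 and Ifngr1 were highest in library 1, as were most members, but Nlrc5 was highest in library 3. In counts Nlrc5 had 302 CPM in library 3 and 310.0 CPM in library 4. These were not told apart by the Poisson likelihood ratio test (adjusted p = 0.58).

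Conjugation of ATG8 proteins to membranes, a branch of autophagy, is known to be needed for IRG and GBP proteins to find vacuoles in mouse cells. Of 10 genes of that list 9 reached a mean of 1 TPM. The ATG8 genes Map1lc3b, Gabarap and Gabarapl2 were the highest, at 363 ± 8.06, 247 ± 14.8 and 187 ± 17.7 TPM, and Map1lc3a the lowest, at 0.840 ± 0.928 TPM. The list summed to 920.2, 885, 931 and 946 TPM, so that its sum was not low in library 3. The 9 members summed to 1439 TPM there, against 1961, 1739.8 and 1700.0 TPM in libraries 1, 2 and 4. Gene by gene, 4 of the 10 listed genes, Map1lc3b among them, had their lowest TPM in library 3, as 17.2% of all tested genes did.

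The genes whose pattern over the 4 libraries lay closest to the mean of the members were Man2b1, Pitpnc1, Anp32e, Wdr53 and Sec22c. Their root mean square differences from it were 0.012, 0.013, 0.015, 0.017 and 0.020 in library-centred log2(CPM + 1). The members' mean pattern was 0.13, 0.13, -0.25 and -0.02 in libraries 1 to 4. Of 13036 genes searched, 70 lay within 0.05, and with 4 libraries such likeness describes these libraries only.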

How the data were processed

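PolyA-selected RNA was measured in 4 libraries of 1 group, technical replicates of 1 biological replicate. The authors deposited gene and transcript tables with expected counts, TPM and, for each transcript, the percent it takes of its gene. Notes beside the files give GENCODE M21, mm10 and an alignment to transcripts. The deposited table made from the reads holds estimated counts and TPM per transcript on M21. The deposited M4 table holds whole-number counts per gene from a genome alignment on GENCODE M4. For programs and strand settings the sources used here give nothing.

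Expected counts were rounded. Rows outside the annotation, 0.133% to 0.504% of expected counts per library, were left out. The design left no residual freedom for a quasi-likelihood test, so the share of counts was tested across and between libraries with a Poisson likelihood ratio test (edgeR 4.0.16, dispersion 0, TMM library sizes, mean count of at least 10, Benjamini-Hochberg at 0.05 over 13045 genes, R 4.3.3) and tested on simulated data. Such p-values measure counting noise only. TPM differences used log2(TPM + 0.1), which understates differences of low genes. M4 counts were scaled by effective length in the M21 table, averaged over libraries (minimum 50 bases), and to the TPM total over 22195 matched genes. Alternatives were DESeq2 1.42.0 size factors, no count filter, the other quantifications, a pseudocount of 1 TPM and leaving out each library.

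Sequences came from GENCODE M21 transcripts and RefSeq windows, aligned with Biopython 1.88 in Python 3.11.15. Members and lists were chosen with earlier results of these data known. Text names all members, further IRG, GBP and signalling genes with a mean of at least 1 TPM (except 1 signalling gene, which is not reported here), the 3 highest and the lowest ATG8 genes, the 5 closest patterns and the highest marker of each list. Foxp3 is named besides, as the gene that defines Treg, and Ikzf2 and Cd4 as markers whose opposite changes the sum does not show.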

Additional observations from a re-analysis of the deposited data

Results flagged for a closer look

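Gbp4 stood at 251 TPM in library 1, while the other libraries had 200.1 to 205 TPM, a gap that is 0.896 of its whole range. It was the only 1 of 46 values checked in which a library lay that far from the others, and chance alone flags about 1 in 20 such groups.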

How the results depend on the processing

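No paired analysis was possible because the labels give 1 group. In M4 units the effector sum fell below the regulatory sum (-0.75 log2), and the step from the IRG sum to the GBP sum was 1.42. There the effector sum was 361 and the sum of Tgtp1 and Tgtp2 was 181. Also in M4 units, the signs turned for Tgtp1 over Iigp1 (-1.19), Iigp1 over Irgm1 (-0.10) and Gbp7 over Gbp2 (-0.22). In the table made from the reads, the sums were 425 TPM (regulatory), 604 TPM (effector), 259.6 TPM (GBP) and 433 TPM (Tgtp pair), the Tgtp1 share was 35.9%, and the signs turned for Igtp over Tgtp2 (-0.08) and Tgtp1 over Iigp1 (-0.15). Leaving out 1 library at a time, Igtp over Tgtp2 ranged from -0.03 (without library 2) to 0.18, and Gbp7 lost its call without library 3 (adjusted p = 0.89). The cause was not tested. In the same runs 7049 to 8154 genes (53.9% to 62.0% of those tested) and 8 to 9 members were called. The regulatory, effector, GBP and Tgtp pair sums ranged from 528 to 585, from 776 to 861, from 322 to 354 and from 556 to 634 TPM. The Tgtp1 share ranged from 42.6% to 43.4%. All 9 members were called with DESeq2 size factors (68.5% of all tested genes) and without a count filter (37.2%). They were also all called in the table made from the reads (62.5%) and in the M4 counts (78.5%). By TPM in place of CPM, chosen after seeing the data, 4 members in place of 1 were called with a span of at least 1.5-fold. The shares of all tested genes were 39.9% by TPM and 37.5% by CPM. With 4 libraries that the labels give as 1 biological replicate, no spread between animals can be given.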
